A study of Mus musculus with 42 samples.

Results

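The genes of bile acid synthesis and uptake described here are 9 in number: *Cyp7a1*, *Cyp7b1*, *Cyp8b1*, *Cyp27a1*, *Hsd3b7*, *Akr1d1*, *Slc27a5*, *Baat* and *Slc10a1*. They were taken with every probe set that the array's annotation gives to 1 of them alone, which made 16 of 45037 probe sets tested and 9 of 18193 genes named. *Cyp7b1* had 3 probe sets, *Cyp7a1*, *Cyp27a1*, *Akr1d1*, *Baat* and *Slc10a1* had 2 each, and *Cyp8b1*, *Hsd3b7* and *Slc27a5* had 1 each. The rule itself uses no measured value.

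Male ddY mice, an outbred stock, arrived at 5 weeks of age and were acclimated for 1 week. One group was given water (DW in the labels) and the other VAAM, a mixture of amino acids that copies the saliva of *Vespa* larvae, as a 1.8% solution, each by feeding tube at 37.5 μL per g of body weight. There were 5 daily administrations. On the last day food was taken away at 8:00 in both groups, the last administration began at 10:00, and the liver and the white (WAT) and brown (BAT) adipose tissues were collected 4 h after it. RNA from 7 mice of each group was measured in each tissue on Affymetrix mouse genome arrays, 1 per mouse and tissue and 42 in all. Mice given CAAM, a casein amino acid mixture, were not analysed here.

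Bile acids are made from cholesterol in the hepatocyte. In the classical pathway the first and rate-limiting step is the 7α-hydroxylation of cholesterol by CYP7A1. In the alternative pathway CYP27A1 oxidises the sterol side chain first and CYP7B1 then hydroxylates the oxysterol. HSD3B7 and AKR1D1 rearrange the steroid ring, CYP8B1 adds the 12α-hydroxyl group that makes cholic acid, SLC27A5 joins the returning or new bile acid to coenzyme A, and BAAT conjugates it to taurine or glycine. SLC10A1 (NTCP) takes conjugated bile acids back up from portal blood with sodium.

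The authors' summary of the arrays was the distribution free weighted one (DFW). Its values are logarithms of unstated base, read here as log2. DFW leaves little spread between the arrays of 1 tissue. The median within-group SD of a probe set in liver was 1.06e-05, and that in WAT and BAT was 1.41e-05 and 1.06e-05. A difference between groups on this scale is no fold change. It is therefore given in units of the probe set's own pooled SD within groups (written SD), as VAAM minus water ± its standard error. The exact permutation p is two-sided and covers the 3432 ways to divide the 14 mice of a tissue, of which the smallest p allowed is 0.000583.

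The tissue labels were checked against marker genes. In liver 9 of 9 measured hepatocyte markers lay above the median level of all probe sets, in WAT 6 of 6 adipocyte markers did, and in BAT 5 of 5 brown adipocyte markers did. WAT also had 5 of 6 epididymis markers above the median, and BAT had 6 of 6 skeletal muscle markers above it. Hepatocyte markers above the median numbered 2 of 9 in WAT and 1 of 9 in BAT. Adipocyte markers above it numbered 6 of 6 in BAT and 4 of 6 in liver, so that count does not tell WAT from BAT. Brown adipocyte markers above it numbered 0 of 5 in WAT and 1 of 5 in liver. On the principal components of their tissue 4 arrays stood apart: liver VAAM replicate 6, WAT VAAM replicate 1, and BAT VAAM replicates 3 and 5. In whole tissue, fewer cells of a type and less RNA per cell cannot be told apart.

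Promoter sequence, the 250 bases before the start of transcription on the gene's strand, was taken from the RefSeq table of mouse build GRCm38.p6, which held an entry for 5 of the 9 genes. It is shown for *Cyp27a1*, whose values differed most clearly between the groups among the genes with an entry, and for *Cyp8b1* and *Hsd3b7*, the pair whose values followed each other most closely between livers. Capitals mark matches to the motifs searched: CAAAGTCCA for HNF4A, CAAGGNCA for NR5A2, GGGCGG for a GC box and CCAAT for a CCAAT box, on both strands, and TATAAA on the gene's strand. The *Cyp27a1* promoter lies at chr1:74713285-74713534 on the plus strand, that of *Cyp8b1* at chr9:121916306-121916555 on the minus strand, and that of *Hsd3b7* at chr7:127800359-127800608 on the plus strand.
Cyp27a1: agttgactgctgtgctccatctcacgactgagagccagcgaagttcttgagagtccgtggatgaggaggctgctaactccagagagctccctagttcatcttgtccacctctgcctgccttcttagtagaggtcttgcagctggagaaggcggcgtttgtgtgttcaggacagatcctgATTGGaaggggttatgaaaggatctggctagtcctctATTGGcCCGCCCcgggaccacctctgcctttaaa
Cyp8b1: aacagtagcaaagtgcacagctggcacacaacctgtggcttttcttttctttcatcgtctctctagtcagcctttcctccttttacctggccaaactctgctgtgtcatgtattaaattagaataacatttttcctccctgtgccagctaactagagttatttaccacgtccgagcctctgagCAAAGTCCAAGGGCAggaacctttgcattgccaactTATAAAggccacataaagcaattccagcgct
Hsd3b7: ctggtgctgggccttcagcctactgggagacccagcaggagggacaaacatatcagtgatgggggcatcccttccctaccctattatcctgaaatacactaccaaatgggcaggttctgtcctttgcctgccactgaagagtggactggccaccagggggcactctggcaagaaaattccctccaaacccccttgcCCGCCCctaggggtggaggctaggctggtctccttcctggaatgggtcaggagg

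In *Cyp8b1* the HNF4A letters stood 67 to 59 bases before the start and shared 2 bases with the NR5A2 letters, which stood 60 to 53 bases before it. TATAAA stood 31 to 26 bases before the start. HNF4A and NR5A2 are nuclear receptors known to act on bile acid genes. Of 32851 promoters of this length, 0.384% held CAAAGTCCA, 5.53% CAAGGNCA and 7.59% TATAAA. In *Cyp27a1* there were 2 CCAAT boxes, read as ATTGG on the printed strand at 71 to 67 and 34 to 30 bases before the start. A GC box, read as CCGCCC, stood 28 to 23 bases before it. *Hsd3b7* had 1 GC box, 54 to 49 bases before the start. GGGCGG was found in 32.7% of all promoters and CCAAT in 33.8%. The promoters of *Akr1d1* and the 2 of *Slc10a1* held none of these letters. A match is a description of the letters and not a measured site.

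The first question was where these genes are expressed. Of the 16 probe sets, 15 had a higher level in liver than in WAT and all 16 a higher level in liver than in BAT. The exception was *Cyp7b1* 1446995_at, at 5.998 in liver and 6.131 in WAT, which is also at percentile 8.5 of all levels in liver. In liver 14 of the 16 lay above the median level of all probe sets and 12 above the 90th percentile. In WAT and in BAT 2 of 16 lay above the median.

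*Slc27a5* showed the widest gap, with a mean of 13.02 in liver, 6.54 in WAT and 6.42 in BAT over the 7 water mice. *Slc10a1* followed with 12.59, 6.18 and 6.65 by 1424898_at and 12.20, 5.93 and 6.08 by 1450261_a_at. These probe sets for the acyl-CoA synthetase and the uptake carrier lay far above the adipose tissues' values. *Baat* had 10.87, 6.01 and 6.19 by 1419002_s_at and 9.09, 6.30 and 6.60 by 1419001_at.

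Among the hydroxylases, *Cyp7b1* had 11.25 in liver, 6.45 in WAT and 5.82 in BAT by 1421074_at, and 10.63, 6.63 and 6.31 by 1421075_s_at. *Cyp8b1* had 10.65, 6.53 and 6.55. *Cyp7a1* had 9.80, 6.61 and 6.32 by 1438743_at and 8.42, 5.96 and 6.005 by 1422100_at. In each of these genes the liver value stood apart, and the WAT and BAT values lay below the median of their tissues. The reductase gene *Akr1d1* had 9.25, 6.14 and 6.31 by 1425771_at and 8.44, 5.78 and 5.81 by 1455100_at.

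*Cyp27a1* and *Hsd3b7* were the 2 members with high levels outside the liver. *Cyp27a1* 1417590_at was at 12.14 in liver, 8.89 in WAT and 9.11 in BAT, percentiles 98.8, 85.8 and 90.3 of the tissues. *Hsd3b7* was at 12.12, 10.24 and 10.01, percentiles 98.8, 94.9 and 94.9. The liver minus WAT difference on the log2 scale was 3.25 for *Cyp27a1* and 1.88 for *Hsd3b7*. Over the other 7 genes it ran from 2.46 to 6.48, leaving out *Cyp7b1* 1446995_at, so the gap of *Cyp27a1* was within the range of the rest and that of *Hsd3b7* below it. The other *Cyp27a1* probe set, 1457665_x_at, did not share this pattern, at 6.45, 6.01 and 5.56.

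**Figure D1:**
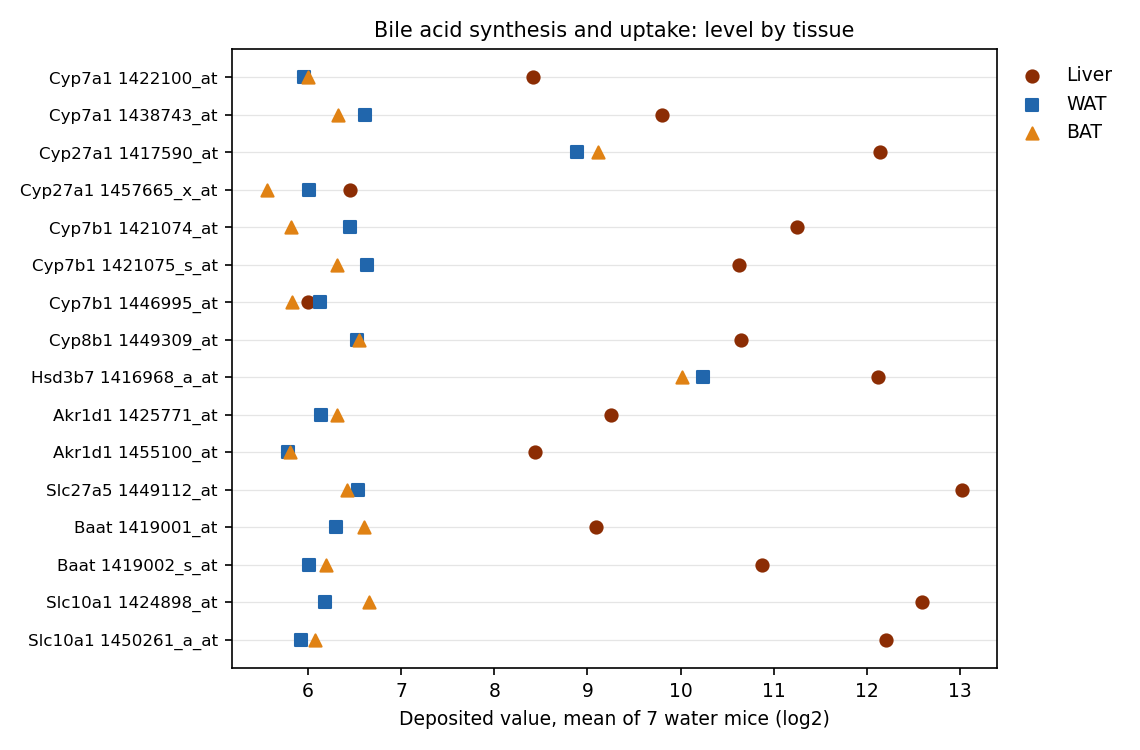
Mean deposited level (log2, x axis) of each of the 16 probe sets (rows) over the 7 water mice in liver, WAT and BAT. Liver points lie to the right of the other tissues in all rows but *Cyp7b1* 1446995_at, and *Cyp27a1* 1417590_at and *Hsd3b7* are also high in WAT and BAT.

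The spread within a tissue was so small after DFW that limma called nearly every probe set between tissues. Of all probe sets, 37.2% were called higher in liver than in WAT, 44.4% higher in liver than in BAT and 36.9% higher in BAT than in WAT. Of the 16 probe sets of these genes the counts were 15, 16 and 9. The median difference of all probe sets was −0.12 for liver minus WAT and 0.01 after quantile normalization, when 23024 were called higher and 21830 lower. The counts of the 16 were the same after it. Whether the tissues were summarized together or apart is not stated, so a difference between tissues may hold a shift between tables, and the order of WAT and BAT cannot be judged against the spread within a tissue.

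The second question was whether VAAM changed these genes in liver. The lowest of the 9 genes was *Slc27a5*, the bile acid acyl-CoA synthetase. The water mice lay between −1.34 and 1.47 SD around their own mean, with a median of −0.23. The VAAM mice lay between −3.35 and −0.80, with a median of −1.39. All 7 VAAM mice were below the water median, and the groups overlapped at the lowest water mouse. On the deposited scale the water mice spanned 13.016255 to 13.016268 and the VAAM mice 13.016246 to 13.016258, so that all 14 livers lay within 2.27e-05 of each other. The difference came to −1.97 ± 0.651 SD (n = 7 and 7, exact permutation p = 0.00233). Limma gave an unadjusted p of 0.00312 and an adjusted p of 0.364.

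*Cyp27a1*, which starts the alternative pathway, was also lower in the VAAM mice by both of its probe sets. For 1417590_at the water mice lay between −0.88 and 1.49 SD with a median of −0.21, and the VAAM mice between −3.33 and −0.65 with a median of −1.08. Again 0 of 7 VAAM mice exceeded the water median, and 2 of them lay far below the rest. The difference was −1.63 ± 0.617 SD (exact permutation p = 0.00233, limma adjusted p = 0.413). For 1457665_x_at the water mice lay between −1.47 and 1.71 with a median of −0.02, the VAAM mice between −2.37 and 0.34 with a median of −1.68, and 1 of 7 exceeded the water median. Its difference was −1.32 ± 0.59 SD (exact permutation p = 0.0321, limma adjusted p = 0.52). The 2 probe sets did not follow each other from mouse to mouse, with r = −0.345 over 14 livers (permutation p = 0.227, adjusted p = 0.624) and Spearman's rho −0.305 (permutation p = 0.291, adjusted p = 0.753).

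Another scaling of the arrays could tell little about these differences. The medians of the 14 liver arrays ran from 6.729427 to 6.729665, a range 10.5 times that of *Slc27a5* itself and 2.12 and 17.9 times those of the 2 *Cyp27a1* probe sets. With each array's median subtracted, *Slc27a5* was at −0.57 SD (exact permutation p = 0.294), *Cyp27a1* 1417590_at at −0.91 (p = 0.108) and 1457665_x_at at −0.52 (p = 0.343). The shift between array medians exceeds what is measured of these genes, so the subtraction adds more spread than they hold. Quantile normalization left *Slc27a5* with 1 value on all 14 liver arrays and 1417590_at with the same value on 13 of 14, so neither could be compared, and it left 6 distinct values of 1457665_x_at, at 0.14 SD. Whether the lower values of both genes hold apart from the authors' scaling could not be judged.

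*Cyp7a1*, the gene of the rate-limiting step, went the other way. For 1422100_at the water mice lay between −0.73 and 1.36 SD with a median of −0.16, and the VAAM mice between −0.51 and 3.14 with a median of 1.36. For 1438743_at, the probe set that represents the gene, the water mice lay between −0.99 and 1.75 with a median of −0.36, and the VAAM mice between −1.10 and 1.91 with a median of 0.88. By both, 6 of 7 VAAM mice exceeded the water median and VAAM replicate 4 was the mouse below it. The difference was +1.24 ± 0.584 SD for 1422100_at (exact permutation p = 0.0385, limma adjusted p = 0.511) and +0.75 ± 0.553 for 1438743_at (exact permutation p = 0.185, limma adjusted p = 0.705). The 2 probe sets followed each other between livers, with r = 0.877 (permutation p = 7e-05, adjusted p = 0.00103) and rho 0.877 (permutation p = 0.0001, adjusted p = 0.00147). Their own ranges over the livers exceeded that of the array medians, which was 0.0117 and 0.0119 of them. The difference of 1422100_at was 1.24 SD with the array medians subtracted and 1.20 after quantile normalization (exact permutation p = 0.0396 and 0.0437). It was less firm against single mice, as leaving out any 1 of 9 of the 14 livers took the exact p above 0.05, to at most 0.0763.

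**Figure D2:**
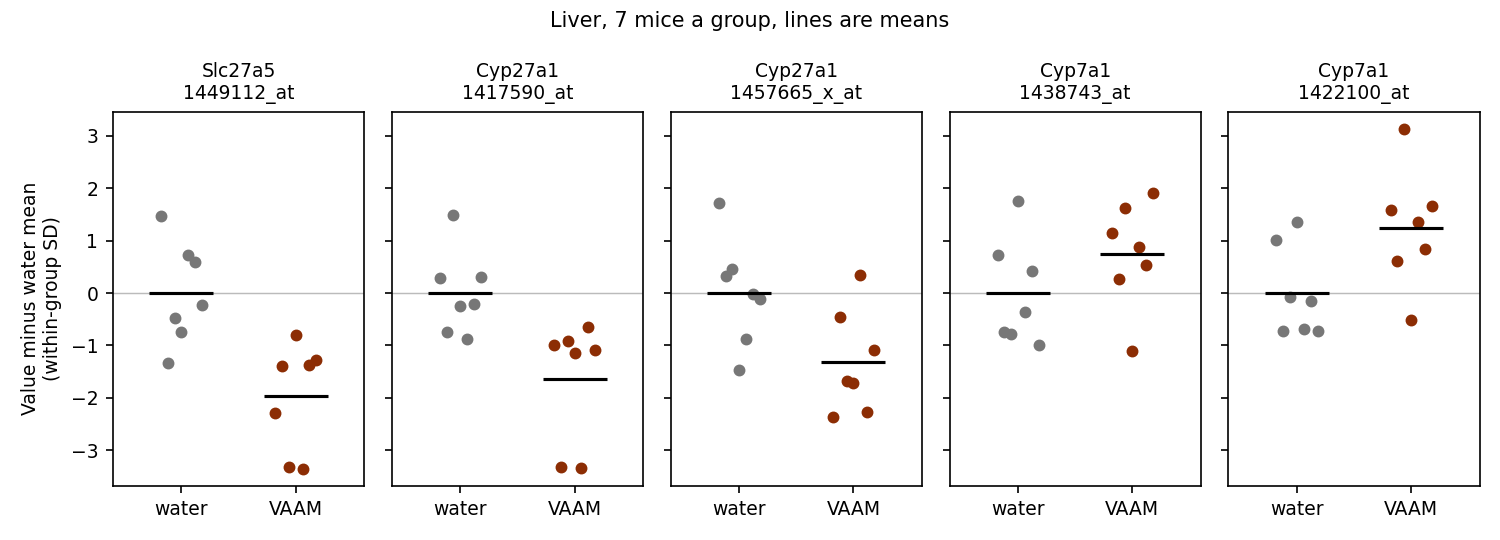
Value of each liver minus the water mean, in within-group SD (y axis), for the probe sets of *Slc27a5*, *Cyp27a1* and *Cyp7a1*, with 7 water and 7 VAAM mice as points and the group means as lines. All 7 VAAM points of *Slc27a5* and of *Cyp27a1* 1417590_at lie below the water median, and 6 of 7 of *Cyp7a1* lie above it.

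The other hydroxylases differed by less than 1 SD. *Cyp7b1*, the second enzyme of the alternative pathway, was at +0.01 ± 0.535 SD by 1421074_at and +0.13 ± 0.535 by 1421075_s_at (exact permutation p = 0.982 and 0.814), and by each 4 of 7 VAAM mice exceeded the water median. For 1421074_at the water mice ran from −1.84 to 1.03 and the VAAM mice from −1.86 to 0.97, nearly the same span. The remaining probe set, 1446995_at, near the bottom of the liver's levels, was at +0.62 ± 0.547 (exact permutation p = 0.266). *Cyp8b1*, which directs the product towards cholic acid, was at +0.19 ± 0.536 SD (exact permutation p = 0.73), with water mice from −1.91 to 1.15 and VAAM mice from −0.93 to 1.95.

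For the ring-modifying enzymes, *Hsd3b7* was at +0.18 ± 0.536 SD (exact permutation p = 0.796), yet 1 of 7 VAAM mice lay above the water median. Its water mice had a median of 0.71, a highest value of 0.98 and 1 low value of −2.60, in replicate 6, and the VAAM mice ran from −0.61 to 1.29 with a median of 0.17. The sign of the mean difference turned when either of 2 mice was left out, and the difference was −0.42 SD without water replicate 6. *Akr1d1*, the 5β-reductase, was at −0.57 ± 0.545 SD by 1425771_at and −0.08 ± 0.535 by 1455100_at (exact permutation p = 0.328 and 0.879), and 3 and 2 of 7 VAAM mice exceeded the water median.

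No probe set of *Baat* or *Slc10a1* differed by more than its standard error. *Baat* was at +0.49 ± 0.542 SD by 1419002_s_at and −0.33 ± 0.538 by 1419001_at (exact permutation p = 0.378 and 0.55), although the 2 followed each other between livers with r = 0.696 (permutation p = 0.00578, adjusted p = 0.0427) and rho 0.604 (permutation p = 0.0245, adjusted p = 0.135). *Slc10a1* was at +0.34 ± 0.538 SD by 1424898_at and +0.03 ± 0.535 by 1450261_a_at (exact permutation p = 0.684 and 0.979). Its water mice included 1 low value in each probe set, −2.85 and −2.89 SD, while the VAAM mice stayed between −0.53 and 1.32. Water replicate 5 held both low values. Without it 1424898_at was at −0.28 and 1450261_a_at at −1.004 SD (exact permutation p = 0.0997).

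**Figure D3:**
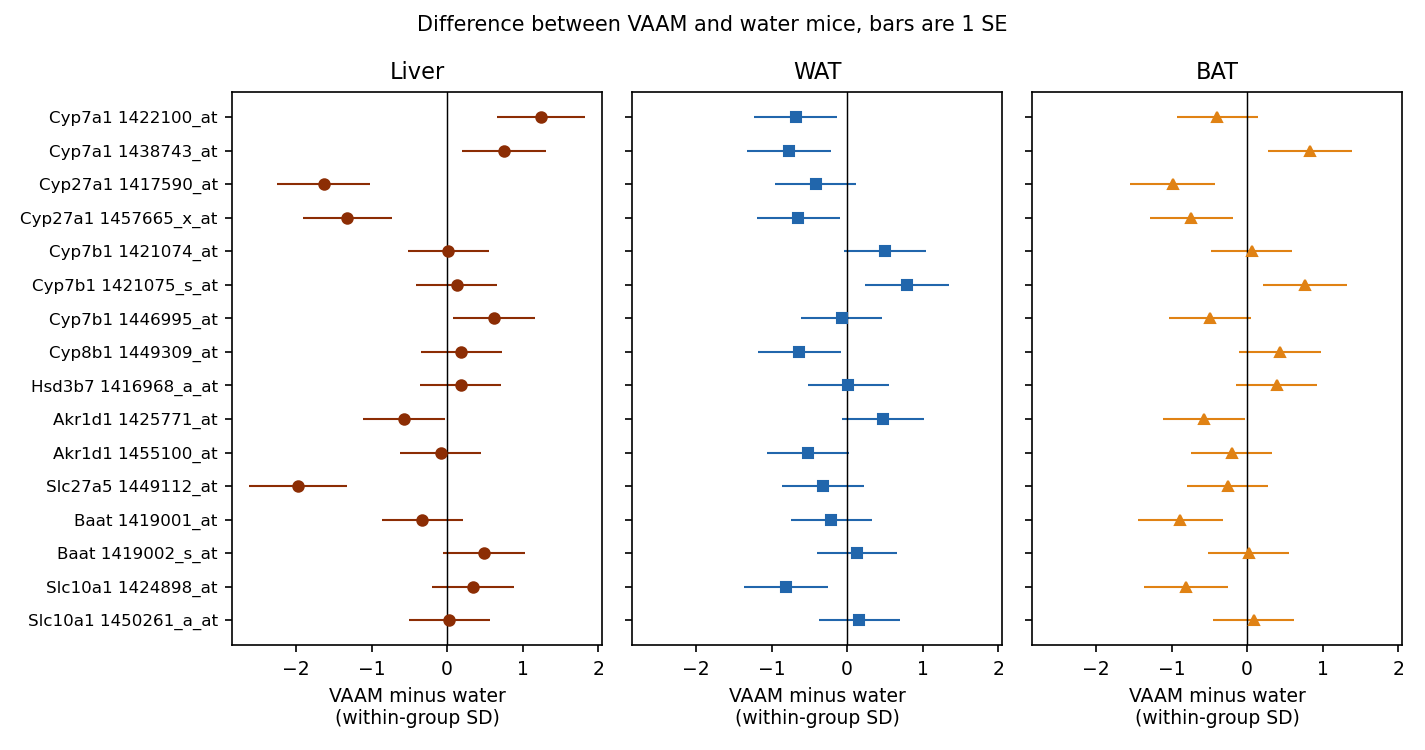
VAAM minus water difference in within-group SD (x axis) with bars of 1 standard error, for the 16 probe sets (rows) in liver, WAT and BAT (panels). The liver points of *Slc27a5* and *Cyp27a1* lie farthest to the left, at −1.97 and −1.63, and *Cyp7a1* 1422100_at farthest to the right, at 1.24.

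In all, 10 of the 16 probe sets were higher and 6 lower in the liver of the VAAM mice, with a median of 0.08 SD, against 46.7% higher and a median of −0.05 SD over all probe sets. By limma 0 of 16 passed an adjusted p under 0.05, and 0 of 45037 did (0% called). Without adjustment, limma's p was under 0.05 for 4 of 16, beside 9.09% of all probe sets. The 4 are the *Slc27a5* probe set, both of *Cyp27a1* and 1 of *Cyp7a1*, and the exact test had the same 4 under 0.05. The values of the 2 groups overlapped in all 16, as in all but 0.155% of the array.

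Rank products, the test that the study's methods name, was also run, at a false discovery rate under 0.05, and of those 4 probe sets it called *Cyp7a1* 1422100_at. It called 5 of 16 probe sets higher, where 2.69% of all were, and 3 lower, where 1.43% were. The calls were both probe sets of *Cyp7a1* and 2 of *Cyp7b1* (higher), both of *Akr1d1* (lower), and *Cyp8b1*, which was called in both directions at once. *Cyp7b1* 1421074_at was among them with a difference of +0.01 SD. *Slc27a5* and *Cyp27a1*, with the largest differences in SD, were not called.

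The calls followed the spread of the probe sets between mice. All 7 called probe sets lay above the 90th percentile of the within-group SDs in liver, where 10 of the 16 lay, and 95.2% of all liver calls lay there. Of the probe sets above it, 36.4% were called. *Slc27a5* was at percentile 20 of the SDs and the 2 *Cyp27a1* probe sets at 73.9 and 10.5. When the probe sets were ranked after scaling to unit SD, 1 of the 16 was called, *Slc27a5*, as lower, where 0.395% of all probe sets were called lower. After quantile normalization 4 of 16 were called higher, both of *Cyp7a1* among them, where 1.77% of all were, and 1 lower, where 0.735% were.

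**Figure D4:**
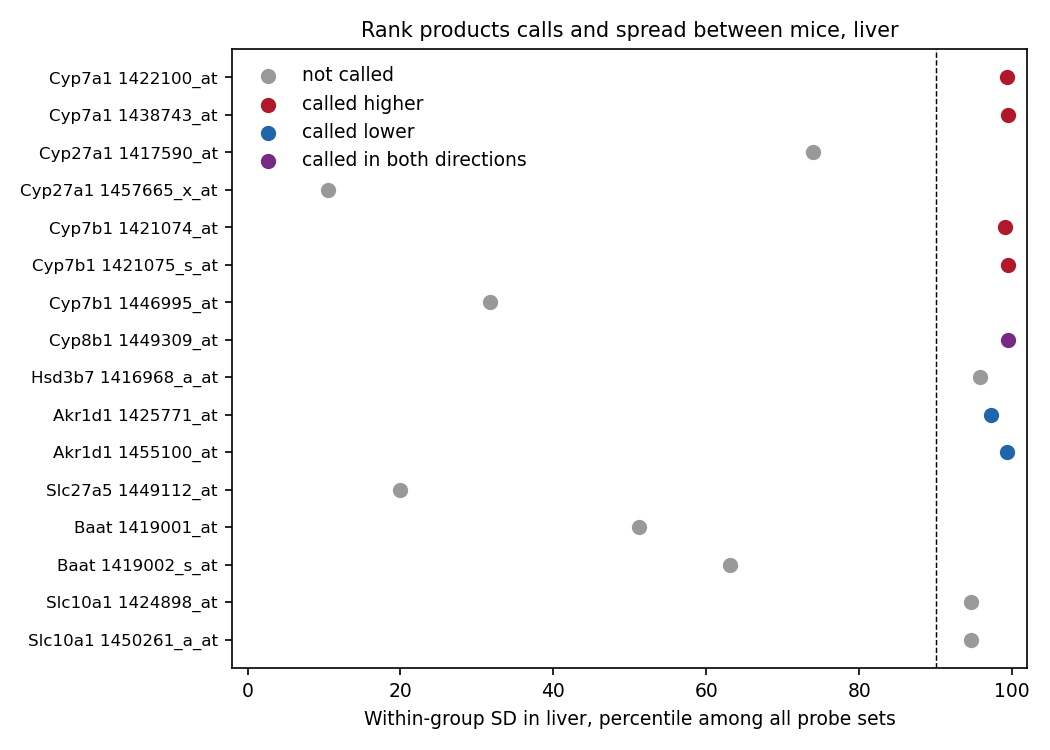
Percentile of the within-group SD in liver among all probe sets (x axis) for the 16 probe sets (rows), coloured by their rank products call, with a dashed line at the 90th percentile. All 7 called probe sets lie beyond the line, and *Slc27a5* and *Cyp27a1* lie to its left, uncalled.

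Markers of other cell types in the same livers were compared. Of 8 macrophage and Kupffer cell markers 8 were higher in the VAAM mice, with a median of 0.46 SD, and their mean level ran from 8.698006 to 8.700788 in the water mice and from 8.698439 to 8.702981 in the VAAM mice. Rank products called 4 of them higher, and 2 of the hepatocyte and 0 of the endothelial markers, where 3.2% of all genes were. Of 6 endothelial markers 5 were higher, with a median of 0.77 SD and means of 8.615670 to 8.615792 and 8.615683 to 8.615888. Of 9 hepatocyte markers 5 were higher and 4 lower, with a median of 0.18 SD and means of 13.93299 to 13.93453 and 13.93411 to 13.93563. Of 5 measured cholangiocyte (bile duct cell) markers 2 were higher and 3 lower, with a median of −0.29 SD. Of 6 stellate cell and fibroblast markers 4 were higher and 2 lower, with a median of 0.31 SD. Rank products called 0 of the former and 1 of the latter higher. Named after their values were seen, the endothelial marker *Cdh5* was at +1.84 ± 0.638 SD (exact permutation p = 0.00466) and the hepatocyte marker *Tat* at +1.41 ± 0.597 (exact permutation p = 0.0192), with 7 of 7 VAAM mice over the water median for each (limma adjusted p = 0.371 and 0.472). *Tat* was the highest of the hepatocyte markers, and the lowest, *Ttr*, was at −1.27 SD (exact permutation p = 0.0361). No marker of the macrophage and Kupffer cell, endothelial and hepatocyte lists passed limma, and the ranges of the 2 groups overlapped in each. No cholangiocyte, stellate cell or fibroblast marker passed limma either. The part of these cell types in the results was not tested.

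Leaving out liver VAAM replicate 6, the array that stood apart, left *Slc27a5* at −2.02 SD (exact permutation p = 0.00408), *Cyp27a1* 1417590_at at −1.81 (p = 0.00117) and *Cyp7a1* 1422100_at at 1.26 (p = 0.0449). *Cyp27a1* 1457665_x_at was then at −1.16 (exact permutation p = 0.0618).

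In WAT 6 of the 16 probe sets were higher and 10 lower in the VAAM mice, with a median of −0.26 SD against −0.01 over all probe sets. None reached an exact p under 0.05, and limma's unadjusted p was under 0.05 for 0 of 16, beside 3.76% of all probe sets. By limma 0 of 16 and 0% of all probe sets passed. Rank products called 0 of 16 in either direction, where 2.01% of all were called higher and 1.47% lower. The groups overlapped in all 16, as in all but 0.0488% of the array. The epididymis markers varied widely between these samples. Their mean level ran from 7.11 to 11.82 in the water mice and from 7.78 to 13.34 in the VAAM mice, 2 of 6 were higher and 4 lower with a median of −0.02 SD, and *Lcn5* was at +2.16 ± 0.673 SD (means 7.28 and 12.72, exact permutation p = 0.00175, limma adjusted p = 1.0). *Defb15* was at +0.85 (exact permutation p = 0.0035) and the other 4 lay between −0.12 and −0.02. Their part in the results in WAT was not tested. The 14 probe sets below the tissue's median level include all those of *Cyp7a1*, *Cyp7b1*, *Cyp8b1*, *Akr1d1*, *Slc27a5*, *Baat* and *Slc10a1*.

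The largest differences in WAT, among the probe sets that represent the genes there, were *Slc10a1* at −0.80 ± 0.556 SD (exact permutation p = 0.164) and *Cyp7b1* at +0.80 ± 0.555 (exact permutation p = 0.172). *Cyp7a1* was at −0.77 ± 0.554 (exact permutation p = 0.186), opposite in sign to its liver value. The range of the WAT array medians was 157, 20.4 and 132 times those of *Slc10a1*, *Cyp7b1* and *Cyp7a1*. Whether these differences hold apart from the authors' scaling could not be judged. *Cyp27a1*, 1 of the 2 genes with a high level here, was at −0.42 ± 0.54 with water mice from −1.58 to 0.78 and VAAM mice from −1.95 to 0.83 (exact permutation p = 0.445). *Hsd3b7*, the other, was at +0.02 ± 0.535 (exact permutation p = 0.98). Its water mice ran from −0.98 to 0.89 and its VAAM mice from −2.13 to 1.95, a wider span around the same centre.

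In BAT 7 were higher and 9 lower, with a median of −0.23 SD against −0.02 over all probe sets. Again 0 of 16 had an exact p or a limma unadjusted p under 0.05, beside 5.1% of all probe sets for the latter, and limma passed 0 of 16 and 0% of all. Rank products called 0 of 16, where 2.19% of all were called higher and 2.29% lower. All 16 overlapped, as did all but 0.0955% of the array. The smallest p belonged to *Cyp27a1* 1417590_at, at −0.99 ± 0.566 SD (exact permutation p = 0.0915). Its water mice ran from −0.78 to 1.18 with a median of −0.09, its VAAM mice from −2.37 to 0.91 with a median of −0.87, and 2 of 7 VAAM mice exceeded the water median. *Baat* was at −0.88 ± 0.56, *Cyp7a1* at +0.83 ± 0.557 and *Slc10a1* at −0.80 ± 0.556 (exact permutation p = 0.124, 0.146 and 0.161). All of these lay below the tissue's median level. The range of the BAT array medians was 132, 186 and 72.8 times their own, so whether they hold apart from the authors' scaling could not be judged. *Hsd3b7* was at +0.39 ± 0.54 (exact permutation p = 0.476). The mean level of the skeletal muscle markers ran from 6.80 to 11.14 in the water mice and from 6.68 to 10.90 in the VAAM mice, 6 of 6 were higher with a median of 0.15 SD, and their part in the results in BAT was not tested.

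Both *Cyp27a1* probe sets were lower in the VAAM mice in all 3 tissues, at −1.63 and −1.32 SD in liver, −0.42 and −0.65 in WAT and −0.99 and −0.74 in BAT, with an exact p under 0.05 in liver alone. However, 1457665_x_at lay at percentiles 7.7 and 0.2 of the levels in WAT and BAT, so nothing is read from its differences there. After quantile normalization 1457665_x_at was positive in liver, on 6 distinct values, and its BAT values were then all equal. Whether the effect of VAAM differed between tissues was tested with limma on values scaled to unit SD, with no term for the mouse. Of the 16 probe sets 0 passed in each of the 3 contrasts, where 0.249% of all probe sets passed for liver minus WAT, 0.153% for liver minus BAT and 0.02% for BAT minus WAT. The smallest p was that of *Cyp7a1* 1422100_at, whose effect was 1.92 SD higher in liver than in WAT (limma adjusted p = 0.308). *Slc27a5* followed at −1.71 SD for liver minus BAT (limma adjusted p = 0.473) and −1.65 for liver minus WAT (limma adjusted p = 0.412). In WAT *Cyp7a1* 1422100_at lay at percentile 6.4 of the levels, so nothing is read from its difference of 1.92 SD. *Slc27a5* lay at percentile 30.4 in BAT and 33.2 in WAT, below the median of both tissues.

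The other genes of the pathway were described by the same measure, with 1 probe set per gene. Of 11 other synthesis genes, which code for peroxisomal and further sterol enzymes, 4 were higher and 7 lower in liver, with a median of −0.15 SD against −0.05 over all genes. The highest was the oxysterol hydroxylase gene *Cyp39a1* at +0.50 ± 0.543 (exact permutation p = 0.373) and the lowest *Abcd3*, which codes for a peroxisomal transporter, at −0.94 ± 0.563 (exact permutation p = 0.107). In WAT 6 were higher and 5 lower, from *Ch25h* at +0.96 to *Cyp2c70* at −0.54. In BAT 7 were higher and 4 lower, from *Cyp46a1* at +1.16 (exact permutation p = 0.0559) to *Cyp2c70* at −0.83.

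Of the 10 measured regulators 6 were higher and 4 lower in liver, with a median of 0.33 SD. *Fgfr4*, the receptor through which the intestinal hormone FGF15 lowers *Cyp7a1*, was the highest at +1.01 (exact permutation p = 0.0828), and the nuclear receptor gene *Nr1i3* the lowest at −0.86 (exact permutation p = 0.135). *Hnf4a* and *Nr5a2*, whose motif letters were found in the *Cyp8b1* promoter, were at +0.56 and +0.20 (exact permutation p = 0.33 and 0.735). In WAT 6 of 10 were higher, from *Nr1i3* at +0.63 to *Nr0b2*, which codes for the repressor SHP, at −0.89 (exact permutation p = 0.263 and 0.124). In BAT 3 of 10 were higher, from the oxysterol receptor gene *Nr1h3* at +0.85 to *Hnf4a* at −0.88 (exact permutation p = 0.138 and 0.131).

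Of 14 genes of bile acid and bile lipid transport 5 were higher and 9 lower in liver, with a median of −0.07 SD. They ran from *Atp8b1*, a phospholipid flippase of the canalicular membrane, at +0.98 (exact permutation p = 0.0938) to the basolateral exporter *Abcc3* at −0.87 (exact permutation p = 0.131). In WAT 6 were higher and 8 lower, from *Abcc3* at +0.69 to *Slc51b* at −0.54 (exact permutation p = 0.226 and 0.338). In BAT 5 were higher and 9 lower, from *Slc10a2*, the ileal bile acid carrier, at +1.31 (exact permutation p = 0.035) to the sterol exporter gene *Abcg5* at −1.17 (exact permutation p = 0.0495). Their values in BAT hardly varied, with within-group SDs of 9.51e-07 and 6.34e-07, and *Slc10a2* was at percentile 0.4 of the tissue's levels, so nothing is read from these differences. By limma 0 genes of these 3 lists passed in any tissue. Rank products called 4 of their 35 genes higher and 5 lower in liver, where 3.2% and 1.8% of all genes were. It called 2 higher and 0 lower in WAT, beside 2.81% and 1.88%, and 0 in BAT, beside 2.85% and 1.81%.

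The last question was whether the 9 genes varied together between mice. Over the 14 livers, with the group means removed, 44 correlations were computed, 36 between different genes (1 probe set each) and 8 between probe sets of 1 gene. None of the 36 passed after adjustment over the 44, and none did with the 2 farthest livers left out. The highest was between *Cyp8b1* and *Hsd3b7*, with r = 0.665 (permutation p = 0.0099, adjusted p = 0.0622) and rho 0.64 (permutation p = 0.0168, adjusted p = 0.106), and r = 0.608 without the 2 farthest livers. *Akr1d1* and *Slc10a1* had r = 0.574 (permutation p = 0.0343, adjusted p = 0.189) and rho 0.56 (permutation p = 0.0395, adjusted p = 0.188), and r = 0.493 without the 2 farthest. *Cyp7a1* and *Cyp7b1*, the hydroxylases of the 2 pathways, ran in opposite directions, with r = −0.516 (permutation p = 0.0599, adjusted p = 0.252) and rho −0.635 (permutation p = 0.0168, adjusted p = 0.106), and r = −0.602 without the 2 farthest.

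**Figure D5:**
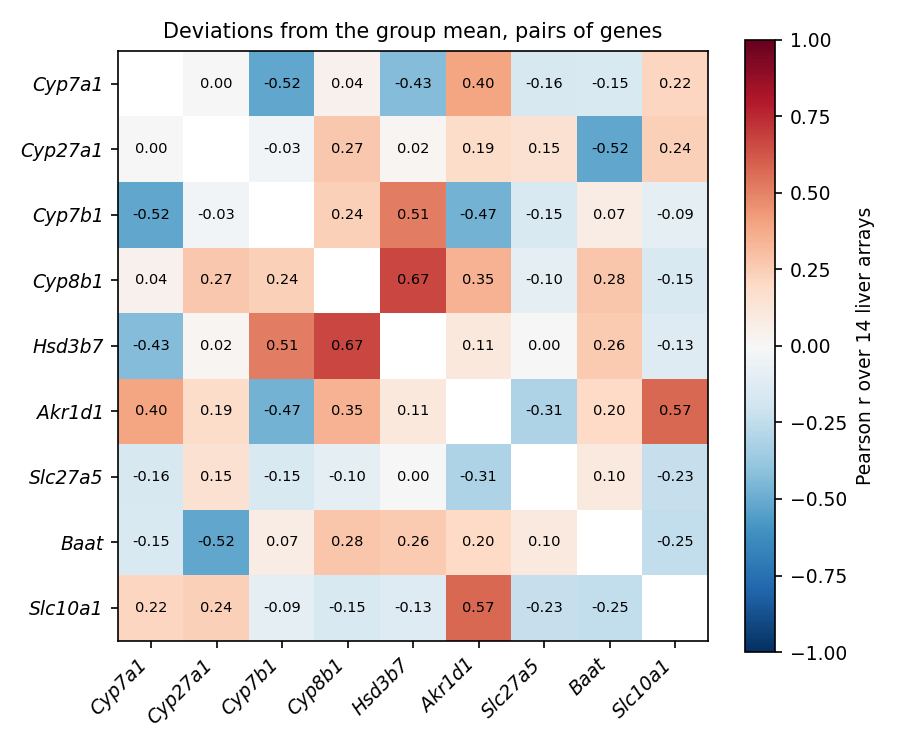
Pearson r between pairs of the 9 genes over the 14 liver arrays, each value taken from its group mean, written in each cell and shaded from −1 to 1. The highest is 0.665 for *Cyp8b1* and *Hsd3b7*, the lowest −0.52 for *Cyp27a1* and *Baat*, and none passed after adjustment.

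Probe sets of the same gene gave a measure of how well a gene's variation between mice was seen. The *Cyp7b1* probe sets 1421074_at and 1421075_s_at had r = 0.99 and the 2 of *Slc10a1* r = 0.957 (permutation p = 1e-05 for both, adjusted p = 0.00022, the former being the smallest that 100000 resamples allow), with rho 0.965 and 0.943 (adjusted p = 0.00044 for both). Those of *Akr1d1* had r = 0.3 (permutation p = 0.298, adjusted p = 0.728) and rho 0.081 (permutation p = 0.785, adjusted p = 0.961). Without the 2 farthest livers r was 0.981 for *Cyp7b1*, 0.784 for *Slc10a1*, 0.879 for *Cyp7a1*, 0.587 for *Baat*, 0.126 for *Cyp27a1* and −0.382 for *Akr1d1*. The paired probe sets of *Cyp7a1*, *Cyp7b1* and *Slc10a1* thus ranked the livers alike, and those of *Cyp27a1* and *Akr1d1* did not. As a description, the 5 genes outside the members whose values were most like those of *Cyp7a1* 1438743_at over the 14 livers were *Pou5f2* (r = 0.878), *Fign* (r = 0.858), *Mbnl2* (r = 0.84), *Gpt2* (r = 0.839) and *Nr0b1* (r = 0.815). They were picked as the highest among all probe sets that name 1 gene, and no p was computed. In the same order their VAAM minus water differences in liver were 0.05, −0.03, 0.37, −0.49 and −0.86 SD.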

How the data were processed

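The 42 arrays came from liver, WAT and BAT of 7 water and 7 VAAM mice. The authors' DFW summary was deposited as logarithms, read as log2 although no source names the base. The methods name R 2.7.1 with Bioconductor 2.2, and the submitters' processing notes R 2.7.2. Whether the tissues were summarized together is not given in the sources used here. The number of arrays limits the precision.

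Of 45101 probe sets 64 controls were left out and no filter was applied. Of the rest, 34945 name 1 gene by the platform annotation, 932 several and 9160 none. A gene was represented in a tissue by its probe set with the highest mean there. Apart from this choice, percentiles within a tissue and the size of the gaps between tissues, levels were not compared between probe sets. Those gaps were set side by side on the deposited scale. Groups were compared per tissue with limma 3.58.1 in R 4.3.3 (default prior, Benjamini-Hochberg, 0.05), rank products over 49 pairs of arrays with 50 permutations (Python 3.11.15, numpy 2.4.6, pandas 2.3.3) and exact permutation (scipy 1.17.1). Both tests across all probe sets were tried on simulated data. For rank products these had the same spread in every probe set, unlike the arrays, so they cannot judge calls that follow the spread. Correlations used 100000 resamples. Figures were drawn with matplotlib 3.10.9. Labels do not say whether mice were housed apart, nor that a replicate number marks 1 mouse or batch. Numbers were not used to pair samples. By the study's methods the 3 tissues were collected from the same mice, and the main tests between tissues took the arrays as independent. As alternatives, the replicate number was a block, and further settings were quantile normalization, subtraction of array medians, a filter on level, other priors, array weights, 1 fit over the 42 arrays, gene means, the rank sum, unit SD scaling and leaving out arrays. Leaving out the arrays that stood apart (beyond 2.2 SD on any of principal components 1 to 3) was added after the data were seen.

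The 9 genes, the lists and the rule for named genes (all members, the highest and the lowest gene of each pathway list in each tissue, and the 5 genes most like *Cyp7a1*) were chosen with earlier results of these data known. Of the genes listed as pathway genes or markers, *Gpbar1*, *Serpina1a*, *Plin1*, *Adrb3*, *Cpt1b*, *Spp1*, *Spink11* and *Crisp1* were not matched. *Hnf4a* and *Nr5a2* in liver were named for their motifs and *Cdh5*, *Tat*, *Ttr*, *Lcn5* and *Defb15* for their values, after these were seen.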

Additional observations from a re-analysis of the deposited data

Results flagged for a closer look

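Of 54 groups of 7 mice, 2 (3.7%) held a mouse far from the other 6 by Dixon's ratio, the gap to the nearest mouse over the range of the group, with a critical value of 0.568. Chance marks about 1 in 20. In the liver of the water mice the lowest *Hsd3b7* value, in replicate 6, had a ratio of 0.628, and the lowest *Slc10a1* 1424898_at value, in replicate 5, a ratio of 0.782.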

How the results depend on the processing

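In liver, limma called 0 of the 16 probe sets under all alternatives but 1 fit over the 42 arrays, which pools the spread of the tissues and called 1, *Cyp7a1* 1422100_at (adjusted p = 0.025). Of all 45037 probe sets that fit called 326 higher and 365 lower in liver, where the main fit called 0. The smallest adjusted p over the alternatives ran from 0.025 to 0.644 in liver, 0.329 to 1 in WAT and 0.258 to 1 in BAT, where limma called 0 throughout. Rank products called 7 in liver, where 3.83% of all probe sets were called in either direction, and 1 after unit SD scaling, where 0.895% were. Counted by gene, 2 genes had an exact p under 0.05 in liver (*Slc27a5* and *Cyp27a1*), and 0 did after subtraction of the array medians or after quantile normalization, which left these 2 probe sets with 1 and 2 distinct values. With the replicate block, differences are in the residual SD of the blocked fit, so their sizes cannot be set beside those in within-group SD. The count in WAT then went from 0 to 1 (*Slc10a1*, −1.25 residual SD, exact permutation p = 0.0469). In liver the block left 2, *Slc27a5* at −1.68 and *Cyp27a1* at −2.72 residual SD (exact permutation p = 0.0156 for both, the smallest that 128 sign flips allow), with *Cyp7a1* 1422100_at at 1.08 (exact p = 0.0938), *Cyp27a1* 1457665_x_at at −1.10 (exact p = 0.109) and *Cyp7b1* 1446995_at at 1.31 (exact p = 0.0312). It changed no other call. Same-numbered water and VAAM arrays had r from −0.128 to 0.136 in liver, −0.079 to 0.478 in WAT and −0.191 to 0.174 in BAT, with 2, 3 and 2 of 7 over 0.1, so the number was not taken to pair them, and the best match of a water array was the VAAM array of its own number for 1 of 7 in liver and 2 of 7 in WAT and BAT. Between tissues the best match was the array of the same number for 7 of 14 (liver and WAT), 10 of 14 (liver and BAT) and 11 of 14 (BAT and WAT). The counts higher by tissue (15, 16 and 9) were the same under the block, in the VAAM mice and after quantile normalization.

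With 1 array left out, the count of genes ran from 0 to 1 in WAT (*Cyp7b1* at 1.35 without VAAM replicate 2, *Cyp8b1* at −1.27 without water replicate 1, *Slc10a1* at −1.35 without water replicate 2) and from 0 to 1 in BAT (*Cyp7b1* at 1.28 without VAAM replicate 2, *Cyp27a1* at −1.55 without VAAM replicate 1). In liver *Slc27a5* ran from −2.31 to −1.82 and *Cyp27a1* 1417590_at from −1.81 to −1.50, both with exact p under 0.05 throughout. *Cyp7a1* 1422100_at ran from 1.10 to 1.75 and had an exact p above 0.05 without water replicates 2, 3, 5, 6 and 7 or VAAM replicates 1, 3, 5 and 7, and *Cyp27a1* 1457665_x_at ran from −1.78 to −1.16 and did without water replicates 1, 2 and 3 or VAAM replicates 1, 3, 4 and 6. Signs turned for small differences. In liver *Cyp7b1* 1421074_at ran from −0.34 to 0.39, 1421075_s_at from −0.16 to 0.54, *Cyp8b1* from −0.15 to 0.39, *Hsd3b7* from −0.42 to 0.34, *Akr1d1* 1455100_at from −0.55 to 0.17 and *Slc10a1* from −0.28 to 0.52 (1424898_at) and −1.004 to 0.24 (1450261_a_at). In WAT *Hsd3b7* ran from −0.37 to 0.48 and *Baat* from −0.62 to 0.017, and in BAT *Slc27a5* from −0.59 to 0.004. Without the arrays that stood apart, *Cyp7b1* 1421074_at was at −0.12 and *Akr1d1* 1455100_at at 0.17 in liver.

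Quantile normalization turned, in liver, *Cyp7b1* 1446995_at to −0.30, *Cyp27a1* 1457665_x_at to 0.14 and *Baat* 1419002_s_at to −0.62; in WAT, *Cyp7b1* to −0.79, *Hsd3b7* to −0.11 and *Akr1d1* to −0.61; and in BAT, *Cyp7a1* to −0.24, *Cyp7b1* to −0.37, *Cyp8b1* to −0.20 and *Hsd3b7* to −0.35. Subtraction of array medians turned, in liver, *Cyp7b1* 1446995_at to −0.39, *Baat* 1419002_s_at to −0.33 and *Slc10a1* 1450261_a_at to −0.12, in WAT *Cyp7b1* to −0.57, *Hsd3b7* to −0.32 and *Akr1d1* to −0.59, and in BAT *Akr1d1* to 0.003, *Slc27a5* to 0.005, *Baat* to 0.006 and *Slc10a1* to 0.003. The share of all probe sets that were higher then went from 46.7% to 25.7% (quantile) and 7.65% (medians) in liver, from 49.4% to 3.89% and 2.24% in WAT, and from 48.6% to 11.4% and 80.2% in BAT. By the rank sum *Hsd3b7* (−0.23) and *Slc10a1* 1450261_a_at (−0.51) turned in liver. By the mean of a gene's probe sets *Akr1d1* (−0.019) and *Baat* (0.068) turned in WAT and *Cyp7a1* (−0.16) in BAT. The causes were not tested. With 7 mice a group the standard error was at least 0.535 SD, so differences under 1 SD lay within 2 standard errors of 0.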
